A study of Rattus norvegicus with 10 samples.

Results

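Liver gene expression under 2 saturated dietary fats, coconut fat and lard, was compared by setting the 2 arrays titled as coconut fat liver against the 2 titled as lard liver. These are 4 of the 10 arrays of a series on Affymetrix Rat 230 2.0 arrays, and every non-control probe set entered the comparison. All animals were male Wistar rats, an outbred laboratory strain, killed after an overnight fast when the 12-week feeding period was over. Both diets drew 42% of their energy from fat and differed in its source. The chow group, also fasted and on its diet for 12 weeks, had 2 arrays and is shown beside them, as are the ranges of the olive oil and fish oil arrays where a value turns on them. The remaining diet composition and the age of the rats were not given in the sources used here, and the labels do not say whether an array held RNA of 1 animal or of several. P-values therefore measure only the spread between these samples, and precision is limited by having 2 arrays a diet.

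Lard supplies mainly long-chain saturated and monounsaturated fatty acids, whereas coconut fat is rich in medium-chain saturated fatty acids such as lauric acid. Medium-chain acids shorter than lauric acid leave the gut largely through the portal vein and can enter liver mitochondria without the carnitine shuttle. Long-chain fatty acids travel in chylomicrons and need the shuttle. In the fasted liver, fatty acids are oxidised in mitochondria and peroxisomes, amino acids are broken down to feed glucose synthesis, and cholesterol is both made and turned into bile acids.

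The deposited values are MAS5 signals on a linear scale, and the 2% trimmed mean of each of the 4 arrays was 100. The median signal was 29 and 29.2 on the coconut fat arrays and 31.5 and 36.8 on the lard arrays. The second lard array thus stood apart at the dim end, with a 25th percentile of 12.1 against 9.4 to 10.3 on the other 9 arrays of the series, and values without it are given for the results that turn most on it. Across probe sets the 2 coconut fat arrays correlated at r = 0.948 and the 2 lard arrays at 0.936. Coconut fat array 1 correlated with lard array 1 at 0.949, higher than the lard arrays did with each other.

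Of 18625 probe sets bright enough to be tested, 0 (0%) reached an adjusted p under 0.05 in limma and 2 (0.0107%) one under 0.10. At an unadjusted p under 0.05 there were 1211 (6.5%), of which 416 (2.23%) were higher with coconut fat and 795 (4.27%) lower. This split depended on the scaling: it was 566 higher and 544 lower after quantile normalization, 762 and 542 after a shift to a common 75th percentile, and 437 and 365 without lard array 2. The arrays of the 2 diets did not overlap at 7273 probe sets (39%), with 2957 (15.9%) higher and 4316 (23.2%) lower. The median 95% interval, unadjusted, reached 0.67 on either side of a log2 fold change. At a probe set with that interval, a smaller difference could not reach an unadjusted p under 0.05. Some bright genes had narrower intervals, such as Acss3, whose log2 fold change of 0.41 had an interval from 0.04 to 0.78. To pass after adjustment, a first probe set needed an unadjusted p of 2.68e-06 in limma, so differences well above 0.67 could also be missed. Against chow, coconut fat gave 0 calls (0%) and 1012 probe sets (5.43%) at an unadjusted p under 0.05, and lard gave 3 calls (0.0161%) and 1489 (7.99%). Both of these comparisons share the chow arrays.

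Fold changes followed the signal. Among the 11087 probe sets with a mean signal up to 100 on the 4 arrays, the median log2 fold change was -0.15 and 35.7% lay above 0. Among the 994 with a mean over 1000, the median was 0.1 and 76.1% lay above 0. After quantile normalization these medians were 0.01 and 0. The counts below of bright genes above 0 are to be read against the 76.1%, and the quantile value is printed beside most list medians. Over the 10470 genes, each taken by its brightest probe set, 4943 (47.2%) were above 0. At an unadjusted p under 0.05 there were 636 (6.07%), 259 (2.47%) were higher and 377 (3.6%) lower, and 1881 (18%) were higher and 2231 (21.3%) lower without overlap. The shares without overlap were not split by signal, so the counts below of bright genes without overlap have no matching share.

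**Figure D1:**
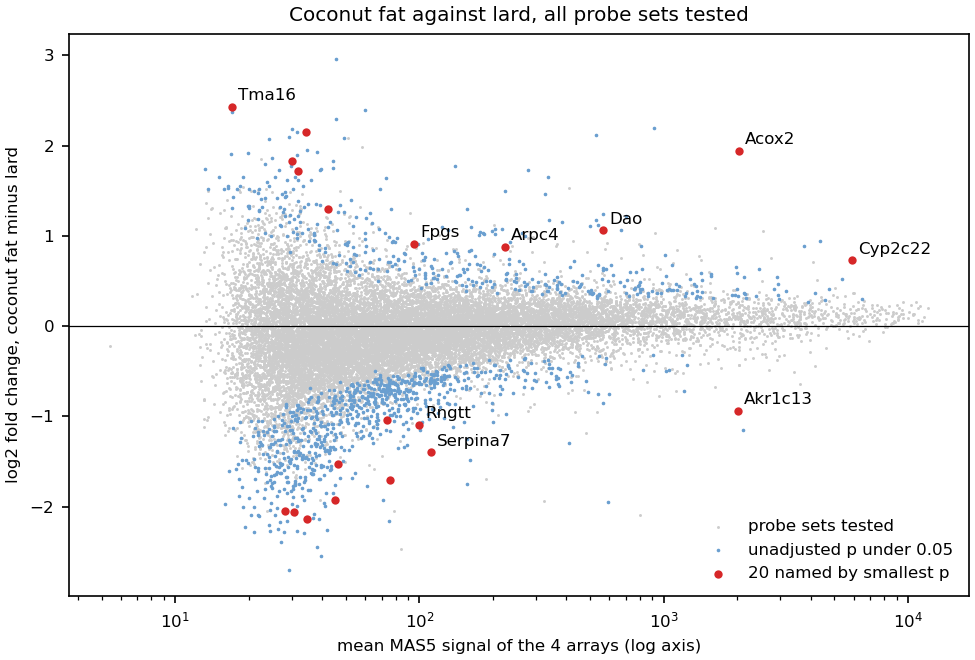
Log2 fold change of coconut fat minus lard against the mean MAS5 signal of the 4 arrays (log axis) for all 18625 probe sets tested. Blue points have an unadjusted p under 0.05, red points are the 20 genes named by smallest p, and the cloud tilts from below 0 at dim signals (median -0.15 up to 100) to above 0 at bright ones (median 0.1 over 1000).

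Markers of hepatocytes, the main cell type of the liver, were bright on all 4 arrays. Their 11 genes summed to 82740 and 84949 with coconut fat and to 76918 and 77350 with lard, and all 11 had fold changes above 0, with a median of 0.08 that turned to -0.04 after quantile normalization. Alb, which encodes albumin, read 12180.3 and 11995.7 with coconut fat and 10518.5 and 10119.5 with lard. The 12 Kupffer cell and macrophage markers summed to 5375 and 4955 with coconut fat and to 5559 and 5092 with lard, ranges that overlap. Within that list 6 genes lay above 0 and 6 below, and 2 were lower at an unadjusted p under 0.05. The median was 0.002 (-0.04 after quantile normalization). Without lard array 2, 8 of the 12 lay below 0 and the median was -0.22. Without lard array 1, 5 lay below 0 and the median was 0.08. Cd14, the endotoxin co-receptor, was at 356.1 and 320.6 with coconut fat, 422.4 and 579.1 with lard, and 1100 and 1045 with chow. Cd5l, a macrophage-secreted protein, was at 452.2 and 533.2 against 635.6 and 678.2 with lard. Both genes were without overlap, as were 4 of the list on the lower side in all and 3 on the higher side. Log2 fold changes in the list ran from -0.55 to 0.27, so these 2 genes do not stand for the list, which shared no direction. In whole liver, a different number of cells of a type and a different amount of RNA per cell cannot be told apart.

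Among 10 liver endothelium markers 7 lay above 0 and 2 were higher at an unadjusted p under 0.05. Lyve1, a hyaluronan receptor of sinusoidal endothelium, was at 851.1 and 809.4 with coconut fat and at 563.8 and 602.7 with lard, though its other probe set differed by 0.06 on the log2 scale. Tie1, an endothelial receptor kinase, was at 70.5 and 65.2 against 39.7 and 50.6. The endothelial median of 0.11 was 0.08 after quantile normalization and -0.01 without lard array 1. Of 13 stellate cell and fibroblast markers 5 lay above 0 and 8 below, 10 lymphocyte markers split 5 and 5, and 4 cholangiocyte markers 2 and 2. Only 1 of 7 neutrophil markers on the array was bright enough to be tested, S100a9, at 58.3 and 33.1 against 72.3 and 83.7. Markers of red blood cells (2 of 3 above 0), adipocytes (2 of 6), exocrine pancreas and gut (0 of 4) and striated muscle (1 of 3) were few. None of the 181 marker probe sets was at 0 on all 4 arrays. The part of these cell types in the results below was not tested.

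Akr1c13, an aldo-keto reductase of the family that reduces ketones of steroids and other substrates, gave the smallest p of any probe set with a gene symbol. It was at 1322 and 1437 with coconut fat and at 2714 and 2565 with lard. The chow arrays, at 2153 and 1966, lay between the diets, and the olive oil and fish oil arrays, from 1656 to 1739, lay between coconut fat and chow. The groups did not overlap. The gene was 1.91-fold lower with coconut fat (log2 fold change -0.94, SE 0.12, 95% interval -1.2 to -0.67, limma adjusted p = 0.0944) and did not pass, although it did after quantile normalization (limma adjusted p = 0.0345).

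Acox2, the peroxisomal oxidase that acts on branched-chain fatty acids and on the side chain of bile acid precursors, differed in the other direction. Its signal was 3909 and 2553 with coconut fat and 1030 and 650.6 with lard. The chow arrays disagreed, at 917.1 and 2381, and the other 4 arrays of the series lay between 902.4 and 1214. Both coconut fat arrays were above the remaining 8, with chow array 2 nearest. The fold was 3.85 (log2 fold change 1.94, SE 0.38, 95% interval 1.1 to 2.79, limma adjusted p = 0.517), and the gene did not pass.

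The promoters of these 2 genes are shown because both are bright, had small p-values and differed in opposite directions. The windows, from RefSeq on GRCr8, run from 250 bases before the annotated start to 50 after it and are printed 5′ to 3′ on the gene's strand, with CCAAT or its reverse complement ATTGG in capitals. Akr1c13 lies at chr17:70894386-70894685 on the plus strand and held 0 matches, and Acox2 lies at chr15:19090705-19091004 on the plus strand and held 2.
Akr1c13: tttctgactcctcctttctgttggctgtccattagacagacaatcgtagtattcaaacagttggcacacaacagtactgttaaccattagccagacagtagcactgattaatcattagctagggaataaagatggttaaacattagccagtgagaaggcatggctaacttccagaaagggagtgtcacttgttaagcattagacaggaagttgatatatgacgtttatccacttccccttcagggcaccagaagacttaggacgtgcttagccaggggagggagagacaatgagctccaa
Acox2: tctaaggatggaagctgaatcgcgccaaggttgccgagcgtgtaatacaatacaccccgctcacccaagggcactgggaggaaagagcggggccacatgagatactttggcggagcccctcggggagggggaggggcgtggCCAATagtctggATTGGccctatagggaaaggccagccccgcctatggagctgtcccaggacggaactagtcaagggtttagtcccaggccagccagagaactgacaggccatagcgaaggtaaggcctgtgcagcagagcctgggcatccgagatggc
Either strand of CCAAT occurred in 12549 of 33469 promoters of the same length (37.5%).

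The largest separation relative to its error came from a probe set without a gene name, 1371119_at. It was at 88.5 and 116.9 with coconut fat, at 15.9 and 17.9 with lard, and between 55.2 and 90.3 on the other 6 arrays. The lard arrays were thus the lowest of the 10. It was 5.25-fold higher with coconut fat (log2 fold change 2.39, limma adjusted p = 0.0761), and passed after quantile normalization (limma adjusted p = 0.0328) and after the 75th percentile shift (0.04).

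Dao, a peroxisomal oxidase of D-amino acids, was at 726.1 and 791.8 with coconut fat, 438.1 and 299.1 with lard and 500.3 and 461.6 with chow. Both coconut fat arrays exceeded all others of the series, and the fold over lard was 2.09. Cyp2c22, a cytochrome P450, was at 6830 and 7911 against 3854 and 5095, a fold of 1.66. Fpgs, which adds the glutamate tail that keeps folates in the cell, was at 122.8 and 128.6 against 63.4 and 67. A brighter Fpgs probe set differed by 0.11 on the log2 scale. Arpc4, a subunit of the actin-branching Arp2/3 complex, was at 327.2 and 254.6 against 147.2 and 163.6. None of these passed, and limma's adjusted p of the 20 genes with the smallest p ran from 0.0944 for Akr1c13 to 0.622.

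Several of the other genes with the smallest p were dim. Tma16, a ribosome assembly factor, was at 36 and 26.1 with coconut fat and at 2.5 and 3.9 with lard, both under the background bound of 12.8, so that it was at least 2.13-fold higher. Taf3, a subunit of the general transcription factor TFIID, was at 7.2 and 11.2 with coconut fat, under that bound, and at 47.6 and 46.4 with lard, at least 3.15-fold lower with coconut fat. On its other tested probe set the log2 fold change was 0.06. Serpina7, the thyroxine-binding globulin of plasma, was at 52.1 and 64.6 against 116.8 and 212.4. Chow, at 76 and 73.8, lay near coconut fat for this gene, while olive oil and fish oil ranged from 115.3 to 237.7. Other tested probe sets of Ubox5, Daam1, Smarca2, Rngtt, Arid1b and Eef1g had log2 fold changes between -0.25 and 0.19. On the probe set that named them, the first 3 ran from 1.29 to 1.83 and the last 3 from -2.13 to -1.09.

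**Figure D2:**
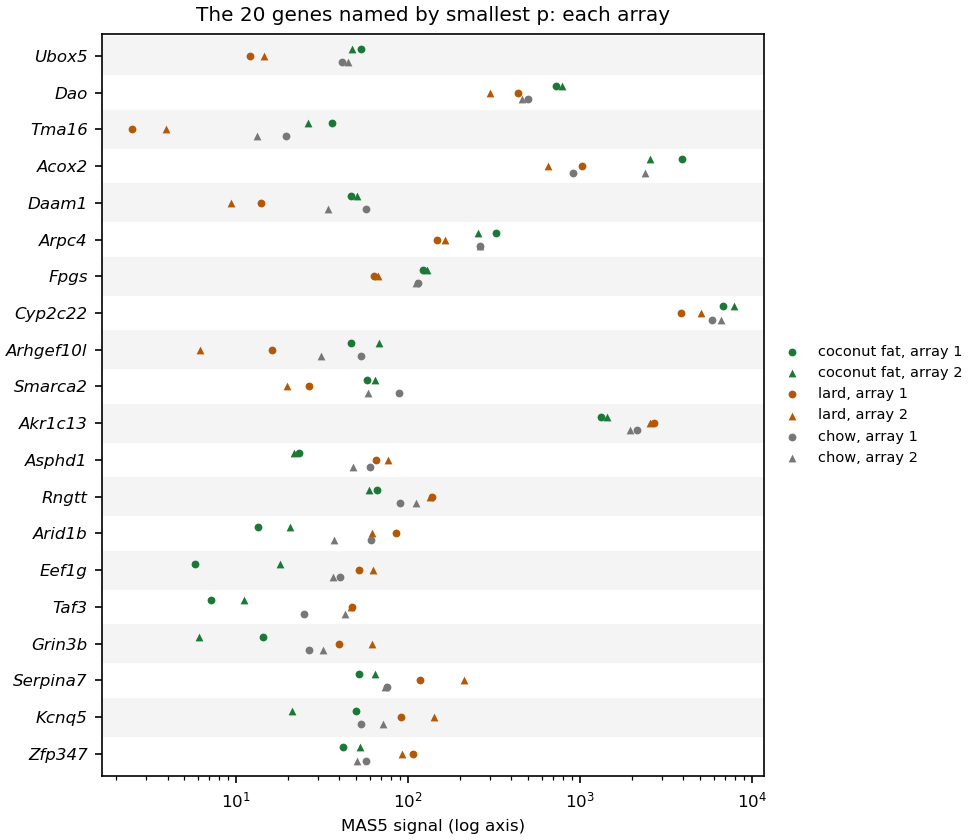
MAS5 signal (log axis) of the 20 genes with the smallest p in either direction, with 1 marker per array of coconut fat (green), lard (orange) and chow (grey). The coconut fat and lard markers of each gene are apart, which the choice of genes required, and only Akr1c13, Acox2, Cyp2c22 and Dao lie mostly above a signal of 300.

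Over all 18625 probe sets tested, 226 were over 2-fold higher and 547 over 2-fold lower with coconut fat without overlap. The balance was the reverse among the 7532 with a mean above 100 over all arrays, a limit set after the values were seen. Of these, 32 were over 2-fold higher and 14 over 2-fold lower without overlap. They include Tsku, the secreted protein tsukushi, at 600.4 and 1006 against 376.1 and 283.6, and Akr7a3, an aflatoxin aldehyde reductase, at 515.2 and 980.1 against 350.5 and 302.1. On the lower side, Cav2, a caveolin of plasma membrane pits, was at 85.7 and 80.5 against 227.7 and 249.6, and another of its probe sets was at 62.3 and 108.5 against 138.4 and 240.1. Sult2a6, a bile acid and steroid sulfotransferase, was at 150.1 and 265.6 against 1565 and 388.1. The lard arrays differed by more than the nearest arrays of the 2 diets did. These genes were chosen after their values were seen, and none passed.

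Mst1, which encodes the liver-secreted macrophage-stimulating protein, depended on a single lard array. It was at 1376 and 1221 with coconut fat and at 77.9 and 989.7 with lard. The low value belonged to lard array 1, and the other 9 arrays of the series ranged from 587 to 1376. Without lard array 2 the log2 fold change moved from 2.2 to 4 and passed (limma adjusted p = 0.0112), and without lard array 1 it was 0.39. RT1-A, a class I histocompatibility antigen, was at 453.4 and 289.4 with coconut fat and at 32.1 and 339.3 with lard, and it passed in the same setting with the same adjusted p. Lard array 1 was again the lowest of the 10. Both genes were picked for that setting after their values were seen.

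Genes of bile acid synthesis and transport did not share a direction: 9 of 19 tested were above 0 and 10 below, with a median of -0.03 (-0.12 after quantile normalization), 1 higher and 2 lower at an unadjusted p under 0.05. Hsd3b7, an early enzyme that acts on the sterol ring, was at 1067 and 857.7 with coconut fat and at 278.7 and 600.1 with lard, a fold of 2.33 (log2 fold change 1.22, SE 0.32). Without lard array 1 that fold change was 0.67, and without lard array 2 it was 1.77. Akr1d1, the reductase that removes a ring double bond later in the pathway, was at 1739 and 860.7 against 3974 and 1846. The 2 lard arrays differed from each other by about as much as the diets did, and the log2 fold change was -1.14 (SE 0.48). Its dimmer probe set was at 741.2 and 1101.5 against 1696.1 and 1298.5, with a log2 fold change of -0.71 (SE 0.23).

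The classical pathway's first enzyme, Cyp7a1, was at 663 and 160.3 with coconut fat and at 304 and 195.1 with lard. Its coconut fat arrays enclosed both lard arrays, and the log2 fold change of 0.42 was -0.59 without coconut fat array 1. Cyp8b1, which makes cholic acid, was at 1916 and 1542 against 2799 and 1918, and the groups nearly touched. Cyp27a1, the mitochondrial sterol 27-hydroxylase, was at 2215 and 2744 against 1951 and 2028 without overlap. Of the exporters, Abcb4, which moves phospholipid into bile, was at 348.9 and 372 against 494.5 and 565.3 (chow 737.9 and 429.8). The bile salt pump Abcb11, at 1247 and 1573 against 1288 and 1584, and the uptake carrier Slc10a1, at 5229 and 5843 against 5066 and 5768, overlapped.

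**Figure D3:**
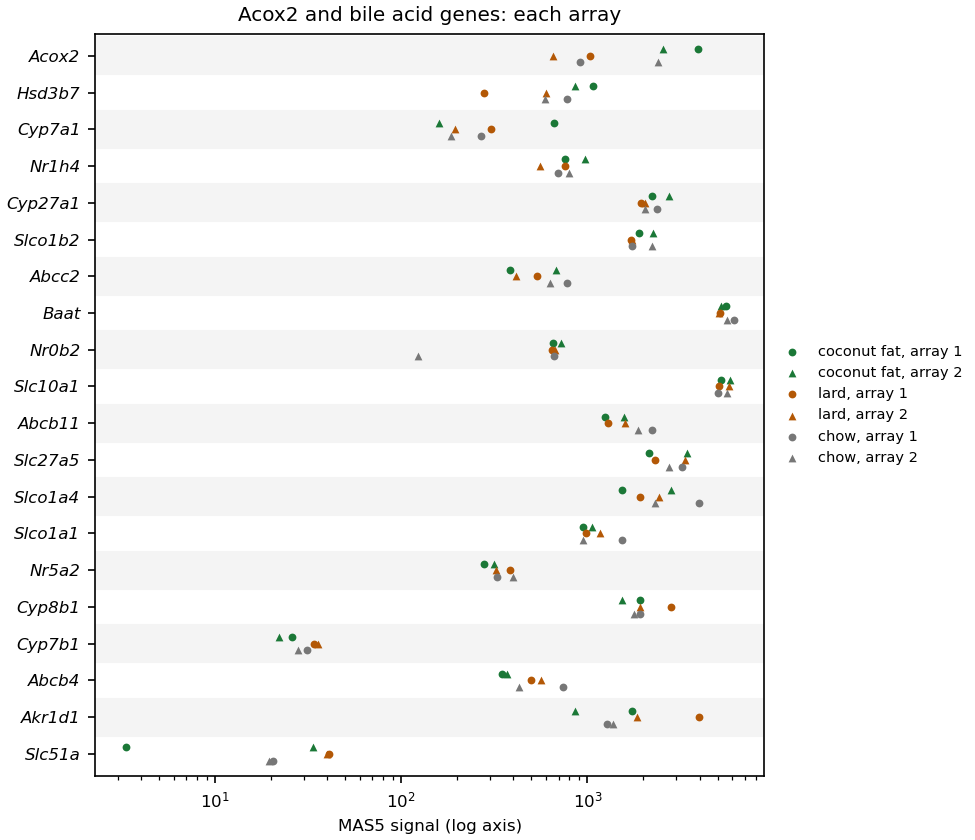
MAS5 signal (log axis) on each coconut fat, lard and chow array for Acox2 and the 19 tested genes of bile acid synthesis and transport, ordered by fold change. Acox2 and Hsd3b7 have both green markers right of both orange ones, Akr1d1 has lard array 1 far right at 3974, and the green markers of Cyp7a1 enclose the orange ones.

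Genes of amino acid breakdown were mostly above 0, 28 of 34, with a median of 0.16 (0.05 after quantile normalization), 4 higher and 0 lower at an unadjusted p under 0.05, and 16 higher and 2 lower without overlap. Sds, serine dehydratase, which turns serine into pyruvate, was at 296.5 and 139.8 with coconut fat and at 80.7 and 40.9 with lard. Chow, at 693.9 and 875.7, was above both, and Sds was 1 of the 3 probe sets that passed between lard and chow (log2 fold change -3.69, limma adjusted p = 0.0465). With coconut fat it stood at -1.92 from chow (limma adjusted p = 0.592), and between the 2 fats at 1.77 (SE 0.47, limma adjusted p = 0.622).

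Gpt, alanine aminotransferase, showed tight replicates at 1326 and 1326 with coconut fat, 812.9 and 847.3 with lard and 2004 and 1958 with chow, so coconut fat lay between lard and chow. Its log2 fold change was 0.67 (SE 0.18). Got2, the mitochondrial aspartate aminotransferase, was at 3319 and 3122 against 2326 and 2502, though its other probe set stood at -0.37 on the log2 scale. Hal, which opens histidine breakdown, was at 1362 and 1043 against 1079 and 612.3, and overlapped; its log2 fold change of 0.55 was 0.14 without lard array 2. Got1, the cytosolic aspartate aminotransferase, passed between lard and chow (log2 fold change -1.86, limma adjusted p = 0.0465) but was at 572.3 and 350 against 374.6 and 367.1 between the fats, with overlap. Mettl7b, a methyltransferase of the endoplasmic reticulum and lipid droplets, was the third probe set to pass between lard and chow and read 879.3 and 982.3 with coconut fat, 641 and 584.9 with lard, and 1750 and 1420 with chow. All 10 periportal hepatocyte markers, a list that shares Sds and Hal with this one, lay above 0, with a median of 0.14 (0.03 after quantile normalization). Of 12 pericentral markers, 8 lay above 0, with a median of 0.17 (0.05).

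Xenobiotic metabolism genes were above 0 in 20 of 24 cases, with a median of 0.2 (0.1 after quantile normalization), 4 higher and 0 lower at an unadjusted p under 0.05, and 14 higher and 0 lower without overlap. Ephx1, microsomal epoxide hydrolase, was at 3970 and 5868 with coconut fat and at 2814 and 2402 with lard (log2 fold change 0.89, SE 0.24). Cyp3a2, a male-predominant P450 of the rat, was at 5748 and 6780 against 3406 and 5568. Cyp2d4 was at 295.5 and 292.9 against 184.5 and 220.8. Ugt2b1, a glucuronosyltransferase, had the most negative value, at 151.3 and 520.4 against 423.1 and 522.9, and rested on coconut fat array 1: without it the log2 fold change was 0.15.

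Medium-chain and short-chain acyl-CoA genes split evenly, with 8 of 16 above 0 and a median of -0.02 (-0.08 after quantile normalization). Coconut fat is rich in the medium-chain acids, but the list also holds genes for short acids and for carnitine. Acadm, the medium-chain acyl-CoA dehydrogenase, was at 4137 and 4451 with coconut fat and at 4019 and 3630 with lard, with a log2 fold change of 0.17 and an interval from -0.11 to 0.44. Of the medium-chain acyl-CoA synthetases, Acsm1 was at 3445 and 3204 against 3380 and 3262, and Acsm5 was at 195.4 and 41.1 against 185.3 and 255.2. Acss3, which activates short acids in mitochondria, was the 1 member at an unadjusted p under 0.05, at 1050 and 1361 against 832.6 and 972.5. The octanoyl transferase gene Crot, at 2371 and 2698 against 3685 and 2912, and the carnitine transporter gene Slc22a5, at 102.5 and 109.3 against 219 and 158.2, were lower without overlap.

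Long-chain fatty acid uptake, binding and activation genes lay below 0 in 11 of 16 cases, with a median of -0.15 (-0.21 after quantile normalization). Cd36, the fatty acid translocase, was at 259.1 and 118.3 with coconut fat, 504 and 228 with lard and 119.7 and 204.8 with chow. The lard arrays were far apart and the groups overlapped. Mitochondrial fatty acid oxidation had 14 of 19 above 0, with a median of 0.05 that was -0.05 after quantile normalization, and 0 at an unadjusted p under 0.05. Cpt1a, the carnitine palmitoyltransferase that admits long-chain fatty acids to mitochondria, was at 2424 and 2094 against 2750 and 2842, without overlap (log2 fold change -0.31, SE 0.25). Pdk4, the kinase that shuts off pyruvate dehydrogenase, was at 550.1 and 464.4 against 740.7 and 672.7. A second Pdk4 probe set overlapped, at 246.3 and 233.7 against 335.5 and 232.2.

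Peroxisomal fatty acid oxidation, the list that holds Acox2, had 9 of 15 above 0, 2 higher and 3 lower at an unadjusted p under 0.05. Its median of 0.13 was 0.02 after quantile normalization and 0.04 without lard array 2. Hacl1, a lyase of alpha-oxidation, was at 1579 and 2150 against 1295 and 1215, with chow at 2457 and 2454 above both. The 3 on the lower side were Pex11a, a peroxisome division factor, at 282.6 and 291.7 against 464.3 and 434.6, and the thioesterases Acot3 and Acot4. Acot3 was at 50.8 and 36.7 against 155 and 84.7, and Acot4 at 333.4 and 425.3 against 633.7 and 525.9. Ehhadh, the bifunctional enzyme, was at 3318 and 2767 against 2397 and 2526, without overlap and on the higher side. Other PPAR-alpha targets had 7 of 17 above 0 (median -0.09, and 0.08 after quantile normalization), Cyp4 omega-hydroxylases 7 of 9 (0.16 and 0.09, and -0.02 without lard array 1), and ketone body enzymes 2 of 5 (-0.03 and 0.06). Angptl4, a lipoprotein lipase inhibitor, was at 873.6 and 945.6 against 1311 and 1305, and Cyp4a1 at 3658 and 2362 against 2852 and 2983.

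Cholesterol synthesis and uptake genes lay below 0 in 18 of 21 cases, with a median of -0.21 (-0.28 after quantile normalization), but 0 reached an unadjusted p under 0.05 in either direction. The direction rested on the second arrays of both diets. The list summed to 14515 and 11313 with coconut fat and to 12796 and 16699 with lard. Coconut fat array 1 was thus above lard array 1, and the ranges overlap. Insig1 was at 1722 and 869 against 1086 and 1743. Without lard array 2, 12 of 21 were below 0 with a median of -0.02, and without lard array 1 it was 20 of 21 with a median of -0.48. Msmo1, the sterol C4-methyl oxidase, was at 281.1 and 142.8 with coconut fat and at 285.2 and 470.2 with lard. Coconut fat array 1 and lard array 1 were nearly equal. Idi1, isopentenyl diphosphate isomerase, was at 192.9 and 161.5 against 219.1 and 323.5, and Sqle, squalene epoxidase, at 34 and 18.2 against 34.8 and 78.5. Mvd, mevalonate diphosphate decarboxylase, was the clearest in both lard arrays, at 21.3 and 32.5 against 57.4 and 49.7.

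The chow arrays disagreed for these genes too. Msmo1 was at 208 and 749.5 with chow, and Fdps, farnesyl diphosphate synthase, at 595.7 and 1824 with chow against 1116 and 704.7 with coconut fat and 994.6 and 1523 with lard. Srebf2, the transcription factor gene of this pathway, was at 153.5 and 120.4 with coconut fat and 156.7 and 158.3 with lard. Of 12 cholesterol export and LXR target genes 9 lay below 0, with a median of -0.09 (-0.12 after quantile normalization). Lipa, the lysosomal acid lipase, was the 1 lower at an unadjusted p under 0.05, at 1016 and 1086 against 1202 and 1430.

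The promoters of Msmo1 and Mvd are printed as examples, with 2 of the 3 most negative fold changes of the list. That of Sqle, the most negative at -0.98, is not shown. The 2 windows held 3 and 2 copies of CCAAT or ATTGG (capitals), the box that binds NF-Y. Msmo1 lies at chr16:29746863-29747162 on the plus strand and Mvd at chr19:67414925-67415224 on the minus strand of GRCr8.
Msmo1: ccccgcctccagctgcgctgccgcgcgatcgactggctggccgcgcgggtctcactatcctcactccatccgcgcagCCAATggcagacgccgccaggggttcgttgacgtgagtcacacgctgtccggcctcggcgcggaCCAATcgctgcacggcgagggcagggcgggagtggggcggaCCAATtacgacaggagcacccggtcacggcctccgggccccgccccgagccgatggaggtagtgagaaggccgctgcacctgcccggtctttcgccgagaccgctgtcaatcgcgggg
Mvd: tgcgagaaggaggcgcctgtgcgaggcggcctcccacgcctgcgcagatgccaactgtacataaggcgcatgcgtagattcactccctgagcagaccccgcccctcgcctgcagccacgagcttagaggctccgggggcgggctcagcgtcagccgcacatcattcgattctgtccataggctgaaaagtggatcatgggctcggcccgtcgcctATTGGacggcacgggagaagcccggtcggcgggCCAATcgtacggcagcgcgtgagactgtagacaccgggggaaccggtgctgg
CCAAT was in the window of 15 of the 17 cholesterol genes with a promoter in the table, against 37.5% of all promoters. The sterol element form TCACNCCAC was in 0 of the 17 and in 374 of all promoters (1.12%), both strands searched. A match is a description of the sequence and does not show binding.

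**Figure D4:**
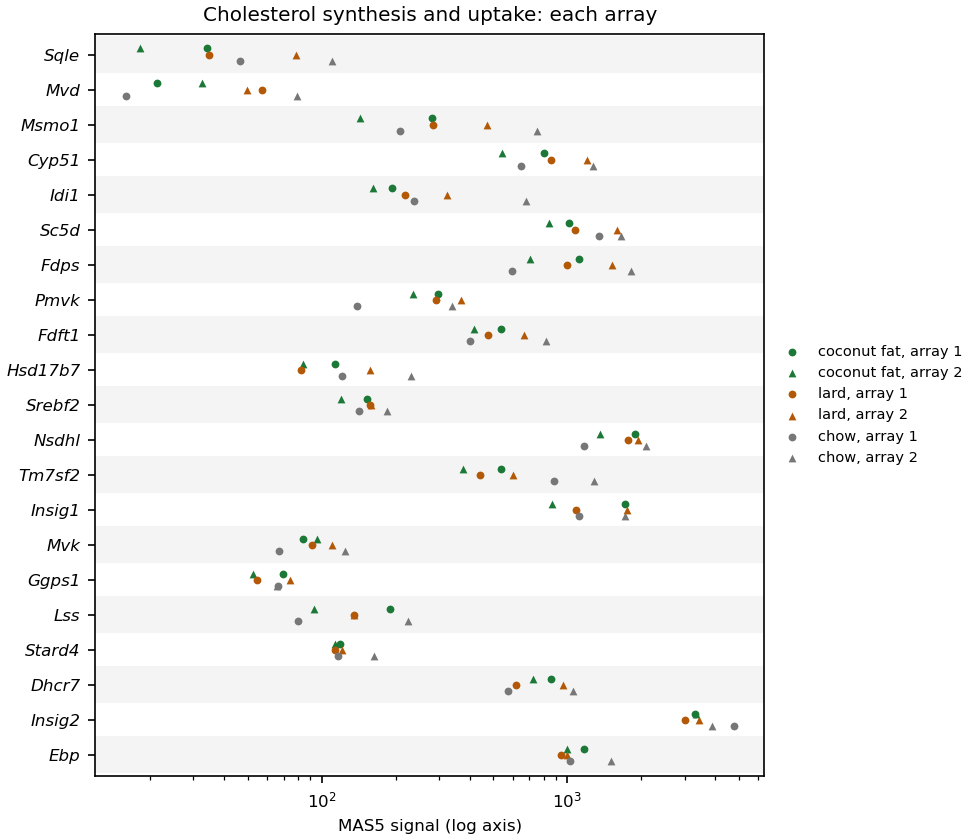
MAS5 signal (log axis) on each coconut fat, lard and chow array for the 21 genes of cholesterol synthesis and uptake, ordered by fold change. Lard array 2 (orange triangles) and chow array 2 (grey triangles) lie to the right of the first arrays for most genes, while lard array 1 (orange circles) lies close to coconut fat array 1 (green circles), as for Msmo1 at 285.2 and 281.1.

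Fatty acid synthesis genes had 11 of 17 above 0 and a median of 0.19, which was also 0.19 after quantile normalization but ran from -0.13 without coconut fat array 1 to 0.51 without coconut fat array 2. Of these, 6 were higher and 0 lower without overlap, and 0 reached an unadjusted p under 0.05. Srebf1, the lipogenic transcription factor gene, was at 1836 and 1854 with coconut fat and 1264 and 1162 with lard on its brighter probe set. Thrsp, the lipogenic protein Spot 14, was at 6049 and 4198 against 3130 and 3013, and Acaca, acetyl-CoA carboxylase, at 541.4 and 378.1 against 285.9 and 303.7. Fasn, fatty acid synthase, overlapped, at 941.1 and 227.5 against 387.4 and 147.5 on the named probe set. The chow arrays were far apart for these genes (Fasn 28.9 and 574.6), and enter the pooled error.

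Desaturation and elongation genes had 8 of 14 above 0 (median 0.09, and 0.04 after quantile normalization). Elovl6, which elongates palmitate, was at 144.9 and 89.5 against 66.5 and 65.8, and its dimmer probe set stood at -0.23 on the log2 scale. Scd, stearoyl-CoA desaturase, was at 6487 and 4893 against 5184 and 3915, with overlap. The desaturases of polyunsaturated fatty acids also overlapped, with Fads1 at 2755 and 1754 against 2482 and 3841 and Fads2 at 1595 and 1217 against 1264 and 2097.

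**Figure D5:**
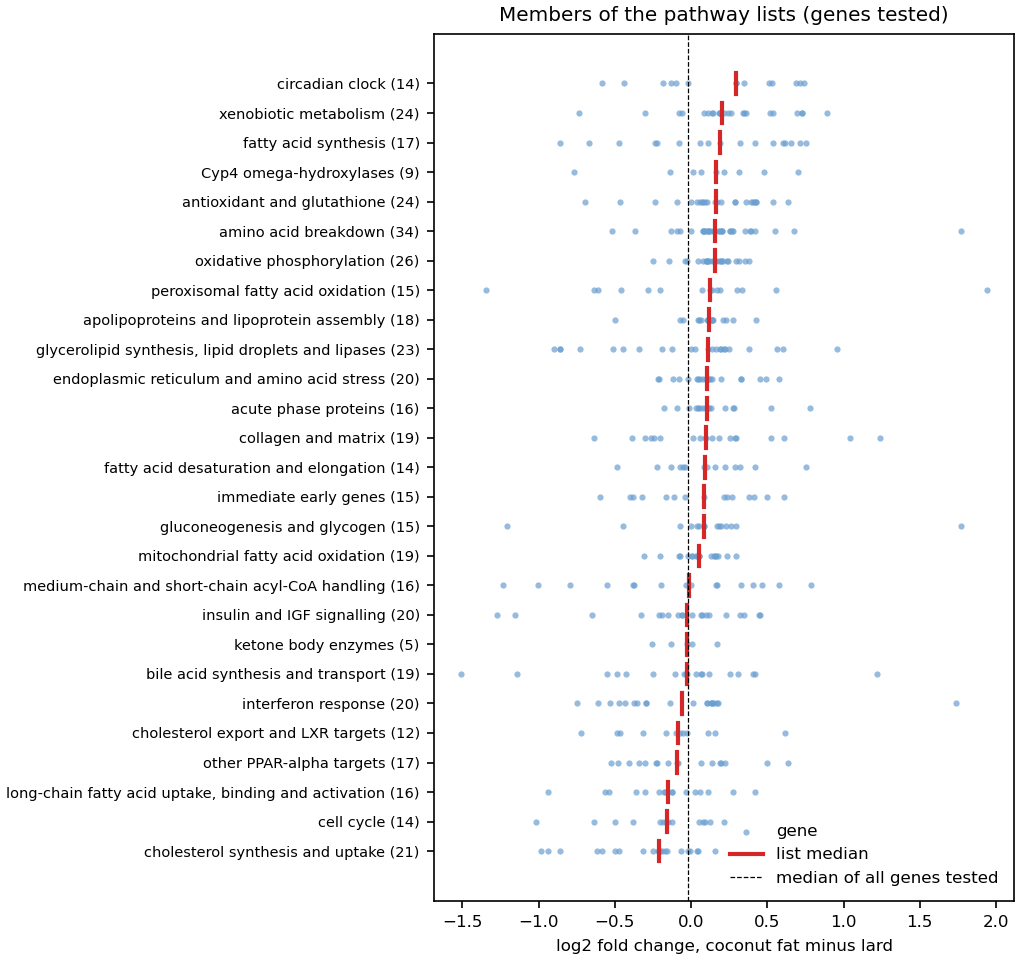
Log2 fold change of coconut fat minus lard for each tested gene (blue points) of the 27 pathway lists, with the number tested in parentheses, the list median as a red bar and the median of all genes (-0.02) as a dashed line. List medians run from -0.21 for cholesterol synthesis and uptake to 0.29 for the circadian clock, and most points lie within 0.5 of 0.

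Apolipoprotein and lipoprotein assembly genes had 15 of 18 above 0, with a median of 0.12 (0.02 after quantile normalization). Apoa4, an apolipoprotein of triglyceride-rich particles, was at 5722 and 5714 with coconut fat and at 5036 and 3603 with lard, and its log2 fold change of 0.42 was 0.18 without lard array 2. Apob was at 178.6 and 202.2 against 135.2 and 109.7 on a dim probe set, while its bright one had a log2 fold change of -0.05. Glycerolipid and lipid droplet genes split 13 above and 10 below (median 0.11, and 0.08 after quantile normalization), 1 higher and 1 lower at an unadjusted p under 0.05. The split was 10 above and 13 below without lard array 2 (median -0.04), and 12 lay below without lard array 1 (median -0.02). Cideb, a droplet protein needed for very low density lipoprotein lipidation, was at 990.9 and 775.2 against 531.7 and 626.3. Plin5, a droplet coat protein of oxidative tissues, was at 36.8 and 35.9 against 60.1 and 77.9. Plin2, the main droplet coat protein of liver, was at 2417 and 2196 against 3317 and 2563, without overlap.

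Gluconeogenesis and glycogen genes had 11 of 15 above 0 (median 0.09, -0.004 after quantile normalization), or 8 of 15 without lard array 2 (median 0.01). Pck1, phosphoenolpyruvate carboxykinase, was at 6318 and 6867 against 6540 and 6311, with an interval from -0.26 to 0.34. Insulin and IGF signalling genes split 10 and 10. Igfbp3, a carrier of insulin-like growth factors, was at 382.2 and 464.9 against 299 and 315.8, and Irs3, an insulin receptor substrate, at 93 and 37 against 117.1 and 155.8. Igfbp1, a fasting-induced binding protein, was at 306.8 and 279.8 against 247.3 and 314.5, with overlap.

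Oxidative phosphorylation genes had 22 of 26 above 0, with a median of 0.16 (0.05 after quantile normalization) and 15 higher and 0 lower without overlap, but 0 at an unadjusted p under 0.05. Cyc1, cytochrome c1, was at 1847 and 1497 against 1299 and 1257, and Sdhb, a succinate dehydrogenase subunit, at 2535 and 2374 against 2029 and 1818. Antioxidant and glutathione genes had 19 of 24 above 0 (0.16 and 0.08) and acute phase proteins 13 of 16 (0.1, and -0.02 after quantile normalization). Endoplasmic reticulum and amino acid stress genes had 15 of 20 above 0 (0.11 and 0.04), with 2 higher at an unadjusted p under 0.05. These were the chaperones Sdf2l1, at 328.9 and 299.9 against 222.5 and 222.7, and Hsp90b1, at 1517 and 1629 against 1351 and 1162. Chow, at 316.5 and 379.9 for Sdf2l1, lay with coconut fat.

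Circadian clock genes had 8 of 14 above 0, with a median of 0.29 (0.33 after quantile normalization, and 0.09 without lard array 2). Cry2, a repressor of the clock, was at 105.4 and 99.3 against 68.6 and 52.6, and Tef, an output factor, at 93.9 and 92.9 against 61.2 and 50.8. The other 2 tested Tef probe sets overlapped, with log2 fold changes of 0.58 and 0.09, and the other Cry2 probe set had one of 0.34. Chow lay with coconut fat for Cry2, at 103.9 and 88.6. Immediate early genes split 8 and 7. Cell cycle genes lay below 0 in 9 of 14 cases, and Cdkn1a, the p21 inhibitor, was at 160.3 and 177.3 against 67.9 and 88 on 1 probe set, with a log2 fold change of 0.22 on the other.

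Interferon response genes split 10 and 10, and the split turned on the lard arrays: without lard array 2, 18 of 20 were below 0 (median -0.45), and without lard array 1 only 5 were (median 0.23). Ifit1, an antiviral RNA-binding protein, was at 56.6 and 59.2 with coconut fat and at 5.6 and 35.5 with lard, and Gbp2, a guanylate-binding protein, at 54.9 and 43.9 against 91.6 and 78.5. Collagen and matrix genes had 13 of 19 above 0 (median 0.1, and 0.18 after quantile normalization). Dcn, the proteoglycan decorin, was at 66.1 and 56.8 against 34.6 and 44.3, with chow above both at 115.1 and 148.1.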

How the data were processed

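The MAS5 signal intensity of each probe set was deposited by the authors on a linear scale. MAS5 is named in the submitters' processing notes without a version. Of 31099 probe sets, 57 controls were removed, log2(signal + 3.1) was taken with the 10th percentile of all signals as offset, and the 40% with the lowest mean (12417) were left out, so this log2 scale understates changes of dim genes. The platform annotation gave 20826 probe sets 1 symbol, 436 several and 9780 none.

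A model with a separate mean for every diet was fitted over the 10 arrays (limma 3.58.1, R 4.3.3, empirical Bayes with an intensity trend, 5 residual degrees of freedom), with Benjamini-Hochberg adjustment over 18625 probe sets. The background bound of 12.8 is the highest signal of the trp control probe sets, and a gene with both arrays of a diet at or below it is given as a bound. The naming rule took genes that passed, or else the 10 per direction with the smallest p without overlap, up to 2 per list by size of fold change (4 if passing), and 24 fixed genes, of which 5 were not analysed here, 107 in all. Other list members are named as examples after their values were seen. Members and the 27 pathway and 13 marker lists were chosen with earlier results of these data known. The fit was tested on simulated data. Alternatives changed the scaling, offset, filter, variance model, sample set or replicate block, or left out each array.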

Additional observations from a re-analysis of the deposited data

How the results depend on the processing

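Against 0 probe sets passing, 2 passed after quantile normalization (1 higher, 1 lower), 1 after the 75th percentile shift (higher), 2 at an adjusted p of 0.10 (1 higher, 1 lower) and 0 to 2 with 1 array left out (0 to 2 higher, 0 lower; the 2 arose without lard replicate 2). With limma's unadjusted p under 0.05, the 416 higher became 762 after the 75th percentile shift and 632 with no filter on dim probe sets, and ranged from 265 (without coconut fat replicate 2) to 642 (without lard replicate 1). The 795 lower became 1306 with no filter and 450 with the lowest 60% left out, and ranged from 365 (without lard replicate 2) to 831. The labels state nothing beyond the number for samples that share a replicate number. The difference of replicate 1 minus replicate 2 with coconut fat correlated at -0.02 with that of lard. The other diets did not enter this value, and a batch shared by replicate number was not tested. With the number as a replicate block, 0 passed over all arrays (408 higher and 787 lower at the unadjusted limit), and 1 passed (Acox2, higher, limma adjusted p = 0.0206) with only the 4 arrays (559 and 794). Of 107 named genes, 89 kept their direction under 12 settings and with each of 10 arrays left out, among them the 20 with the smallest p. The log2 fold change reversed for Acot1 (0.11 after quantile normalization, 0.001 after the 75th percentile shift), Cyp4a1 (-0.08) and Pck1 (-0.094, both quantile). Ranges with 1 array left out that crossed 0 were Bdh1 -0.098 to 0.43, Fasn -0.073 to 1.96, Abca1 -0.032 to 1.26, Plin4 -0.32 to 2.23, Ugt2b1 -1.62 to 0.15, Gstm3 -0.66 to 1.74, Lcn2 -0.24 to 1.79, Col4a2 -0.097 to 2.58, Spp1 -0.75 to 2.84, Onecut1 -0.699 to 2.07, Fabp2 -1.12 to 0.053, Ckm -0.86 to 0.204, Acot1 -0.39 to 0.22, Cyp4a1 -0.304 to 0.33, Fads2 -0.59 to 0.14, Cyp7a1 -0.59 to 1.43, Pck1 -0.024 to 0.096 and Igfbp1 -0.101 to 0.24. Apart from the fewer probe sets or arrays of some settings, the cause was not tested. Of 40 list medians, 29 moved by less than the spread between replicates in all of these. With 1 array left out, 17 medians took both signs. Signals near the bound of 12.8 limit the dim genes.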
